A study of Mus musculus with 10 samples.

Results

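Transcripts of 7 clock genes, Arntl, Clock, Npas2, Dbp, Tef, Hlf and Nfil3, were read out of a table of RNA-seq counts for 20295 genes of mouse brown fat. They were chosen by gene symbol, and all 7 of the 7 symbols were found, each as 1 RefSeq gene model. Of the 10 mice studied, 5 spent 3 days at 4 °C (cold) and 5 stayed at 22 °C (control). All 10 were single-housed, chow-fed, 8-week-old males of the C57BL/6JBomTac strain, with no mutation or transgene named, and each gave 1 poly-A library of the interscapular brown fat, a depot between the shoulder blades that burns fuel for heat. The mice lived in a light and dark cycle, and the hour of tissue collection is not given in the sources used here.

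Library totals were 5676963 to 6923932 counts in the cold group and 4446163 to 5776905 in the control group. Values in CPM, counts scaled to a common library size, use TMM-scaled totals; values in RPKM are CPM per kilobase of counted gene model and are used wherever levels of different genes are compared. The 6 brown adipocyte markers Ucp1, Cidea, Adipoq, Plin1, Fabp4 and Pparg summed to 33804 to 38732 CPM in cold and 24672 to 27644 CPM in control libraries. This sum was higher in every cold library than in any control, and its part in the results was not tested. Of the 6, 1 was called higher and 1 lower, against 10.2% and 9.14% of all genes tested. Their median log2 fold change was 0.00, so the higher sum was not a rise of the markers as a set. The 6 markers of T and B cells summed to 0.748 to 5.13 CPM in cold and 2.27 to 3.73 CPM in control libraries. In bulk tissue, fewer cells of a type and less RNA per cell cannot be told apart. Among cold libraries replicate 5 was the highest or the lowest for each of the 7 genes, far from the rest for Dbp and Tef, and among controls replicate 2 was the highest for Nfil3 and Npas2, so results that turn on either are also given without it. Both libraries were picked by these same values, so a lower p-value without them can follow from that choice and is not separate support.

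The circadian clock is a loop of transcription. The bHLH-PAS protein BMAL1, the product of Arntl, pairs with CLOCK or its relative NPAS2 and activates genes that carry an E-box. Among these are Per and Cry genes, whose proteins repress the pair, and the Rev-erb genes Nr1d1 and Nr1d2, whose proteins repress Arntl and Nfil3 through ROR response elements (ROREs). DBP, TEF and HLF, the PAR bZIP factors, are outputs of this loop that activate genes through D-boxes, and NFIL3 (E4BP4) binds the same D-boxes as a repressor. In mouse tissues with a running clock, Arntl and Nfil3 peak at about the opposite time of day from Dbp. Brown fat has such a clock.

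Cold libraries had more Arntl and much less Dbp than control libraries. Of the 6 members with enough reads to be tested, Arntl rose and Dbp fell at an adjusted p under 0.05 in edgeR's quasi-likelihood test across all genes, against 19.3% of all 11229 genes tested that were called in either direction, 10.2% higher and 9.14% lower. Tef, Nfil3, Clock and Hlf did not pass, and Npas2 had too few reads for the test. The authors' deposited table lists the same 6 members and gives 4 of them, Dbp, Arntl, Tef and Nfil3, an adjusted p under 0.05, where 19.8% of its 11241 genes have one, 10.7% higher and 9.07% lower. With 1 library or both left out, or another tool, the share of all genes called was 21.4% without cold replicate 5, 21.4% without control replicate 2, 17.2% without control replicate 3, 25.3% without control replicate 2 and cold replicate 5 together (18.8% with no filter), 21.8% with DESeq2, 19% with limma-voom and 15.9% with the replicate number as a block. For none of the 6 tested members were the 5 cold libraries wholly apart from the 5 controls, a separation that 14% of all tested genes had, 7.39% with cold higher and 6.57% with cold lower.

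**Figure D1:**
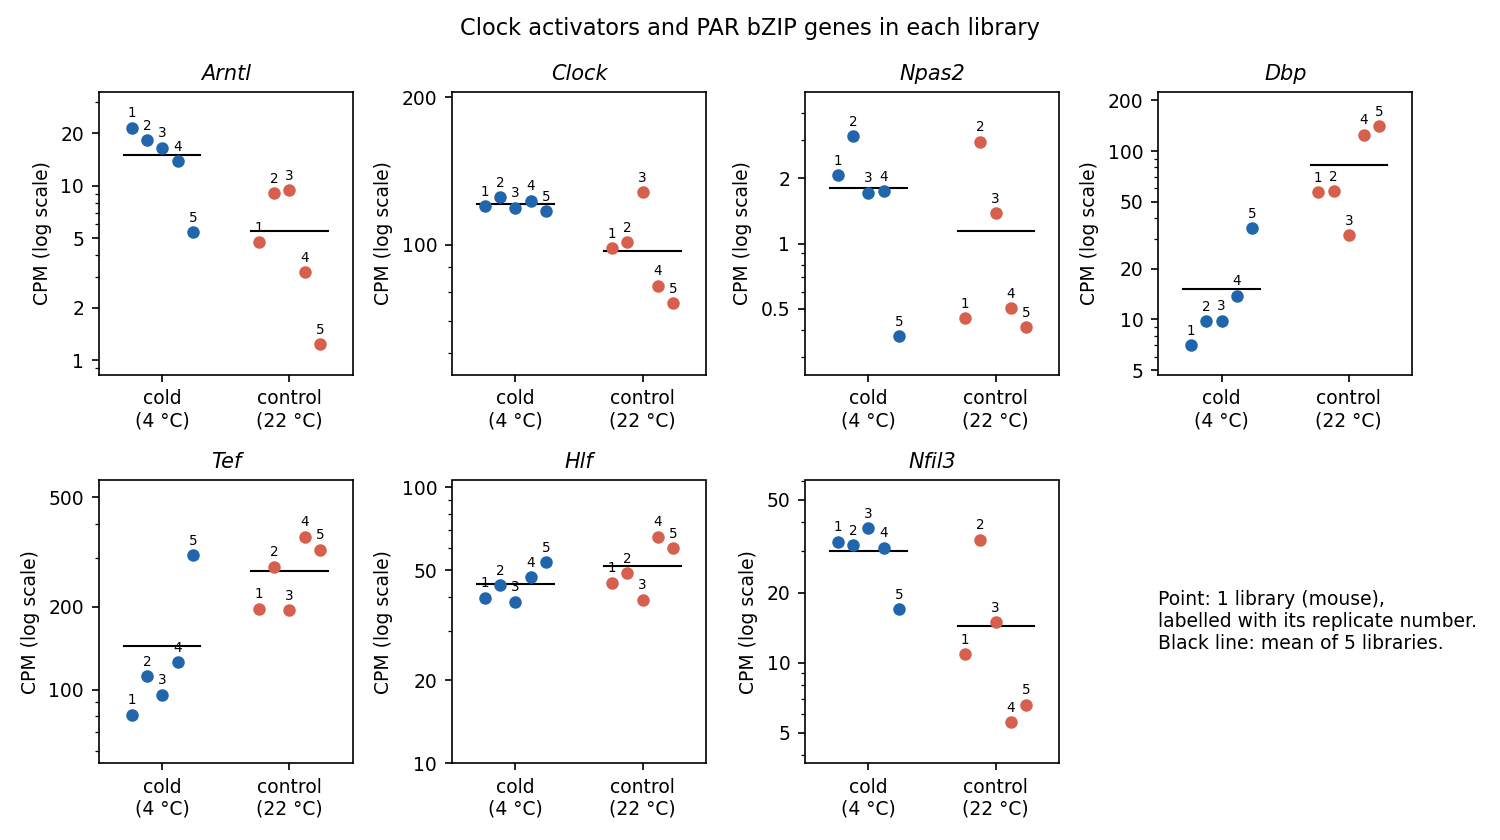
CPM (log axis) of the 7 genes in the 5 cold libraries, left, and the 5 control libraries, right, in each panel; each point is 1 library with its replicate number and the line is the group mean. Cold replicate 5 lies on the control side of the other 4 cold libraries for Arntl (5.42 CPM), Dbp (34.8 CPM) and Tef (308 CPM), and control replicate 2 lies among the cold libraries for Nfil3 (33.7 CPM).

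Arntl (NM_001243048; mm9 chromosome 7, 120350979 to 120457640, plus strand) encodes BMAL1, a partner in the activating pair. It was at 21.5, 18.2, 16.5, 13.8 and 5.42 CPM in cold replicates 1 to 5, against 4.75, 9.02, 9.42, 3.2 and 1.24 CPM in control replicates 1 to 5. The first 4 of these cold libraries lay above every control, and the last lay inside the control range. The means were 15.1 ± 6.07 CPM in cold and 5.53 ± 3.6 CPM in control libraries (SD, n = 5 each), a log2 fold change of 1.47 (SE 0.43, 95% interval 0.54 to 2.40, adjusted p = 0.0301). The counts behind them were low, 474 reads in all cold and 133 in all control libraries. The estimate stayed positive when any 1 library was left out, at 1.21 to 1.73. The call was kept in the fits without cold replicate 5 (1.67, adjusted p = 0.00751), control replicate 2 (1.73, adjusted p = 0.0147) or control replicate 3 (1.73, adjusted p = 0.0251). It was lost in the fits without cold replicate 1, 2, 3 or 4 or control replicate 1, 4 or 5, where the adjusted p lay between 0.0528 and 0.0772.

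One of the 2 RefSeq promoter windows of Arntl, each covering 250 bases before to 50 after a transcription start (GRCm38.p6), held the core of a RORE, TAGGTCA, the element through which Rev-erb proteins act. The window lies at chr7:113207261-113207560 on the plus strand and is printed because the repressor genes of this element are described further on. The match, in capitals, begins at base 31 after the start.
Arntl: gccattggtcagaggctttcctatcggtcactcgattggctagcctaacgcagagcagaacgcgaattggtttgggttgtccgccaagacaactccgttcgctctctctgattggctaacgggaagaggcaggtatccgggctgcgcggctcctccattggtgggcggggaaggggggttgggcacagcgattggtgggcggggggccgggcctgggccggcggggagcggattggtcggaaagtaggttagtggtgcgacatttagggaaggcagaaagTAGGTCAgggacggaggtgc
The letters TAGGTCA or TGGGTCA, on either strand, occur in 6.45% of the 32851 mouse windows in the table. The other Arntl window held no match.

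Clock (NM_001289826; mm9 chromosome 5, 76638893 to 76733817, minus strand), which encodes the usual partner of BMAL1, was almost level among cold mice. It was at 119.7, 125, 119, 123 and 117 CPM in cold replicates 1 to 5, against 98.2, 101, 128, 82.4 and 76 CPM in control replicates 1 to 5. Control replicate 3 lay above every cold library and the other 4 controls lay below every one. The means were 121 ± 3.35 CPM in cold and 97.1 ± 20.3 CPM in control libraries (SD, n = 5 each), and the spread was 2.78% of the mean in cold against 20.9% in control libraries. Its log2 fold change of 0.31 (SE 0.12, 95% interval 0.05 to 0.57) had an adjusted p of 0.0845. Without control replicate 3 it was 0.43 (adjusted p = 0.0101). This was the only call in the 10 fits that left out 1 library, where the adjusted p reached 0.183.

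Npas2 (NM_008719; mm9 chromosome 1, 39251117 to 39420085, plus strand), the relative that can take the place of CLOCK, was scarce. Its libraries held 2 to 20 reads each, 57 in all cold and 28 in all control libraries, so it did not pass the filter on low counts. It was at 2.06, 3.11, 1.71, 1.74 and 0.374 CPM in cold replicates 1 to 5, against 0.452, 2.94, 1.38, 0.505 and 0.413 CPM in control replicates 1 to 5. The lowest cold library and the highest control library were again cold replicate 5 and control replicate 2. Fitted with no filter, its log2 fold change was 0.66 with an adjusted p of 0.481, and an exact permutation test of log2 CPM over the libraries gave p = 0.286 (two-sided, unadjusted). Without control replicate 2 and cold replicate 5 together the unfiltered value was 1.65 (adjusted p = 0.0181). With all 10 libraries the difference in Npas2 was within the spread between them.

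Dbp (NM_016974; mm9 chromosome 7, 52960617 to 52965573, plus strand), the PAR bZIP factor with the strongest daily rhythm in most mouse tissues, showed the widest gap of the 7 genes. It was at 7.04, 9.79, 9.83, 13.8 and 34.8 CPM in cold replicates 1 to 5, against 57, 57.9, 31.7, 125 and 140.3 CPM in control replicates 1 to 5. Only cold replicate 5 reached the control range, and there only control replicate 3 lay below it. The means were 15 ± 11.3 CPM in cold and 82.4 ± 47.4 CPM in control libraries (SD, n = 5 each). The log2 fold change was -2.48 (SE 0.46, 95% interval -3.48 to -1.47, adjusted p = 0.00286), 5.57-fold lower in cold. Dbp was called in all 10 fits that left out 1 library, at -3.03 without cold replicate 5 and between that value and -2.20 in the others. In the authors' deposited table it is at -2.45 with an adjusted p of 1.99e-07. The Dbp gene model overlaps Sphk2, a sphingosine kinase gene on the opposite strand, by 741 bases, and no strand setting of the counts is given. Sphk2 was at 27.4 to 33.9 CPM in cold and 23.9 to 36.3 CPM in control libraries, with a log2 fold change of 0.16 (adjusted p = 0.369).

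The Dbp window held none of the motifs searched. These were the E-box CACGTG, its variant CACGTT, the D-box TTATGTAA or TTACGTAA, the RORE core and the cAMP response element TGACGTCA, each on both strands. The sequence, chr7:45704997-45705296 on the plus strand of GRCm38.p6, is shown in lower case throughout beside that of Tef, chr15:81811164-81811463 on the plus strand, which has an E-box in capitals that begins 138 bases before the start.
Dbp: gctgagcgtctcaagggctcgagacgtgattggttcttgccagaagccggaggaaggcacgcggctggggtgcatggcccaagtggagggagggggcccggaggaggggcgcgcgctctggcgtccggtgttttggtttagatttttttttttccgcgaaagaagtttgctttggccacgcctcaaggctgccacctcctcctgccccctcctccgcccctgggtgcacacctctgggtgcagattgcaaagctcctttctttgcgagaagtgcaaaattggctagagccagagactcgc
Tef: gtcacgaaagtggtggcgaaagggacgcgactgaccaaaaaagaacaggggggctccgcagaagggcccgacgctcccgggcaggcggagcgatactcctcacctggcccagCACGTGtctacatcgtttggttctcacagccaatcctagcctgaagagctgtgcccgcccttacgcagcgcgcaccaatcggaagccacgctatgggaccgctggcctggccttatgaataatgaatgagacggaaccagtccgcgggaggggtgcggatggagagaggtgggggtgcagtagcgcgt
The other Tef window also held an E-box, 127 bases before its start. CACGTG occurs in 7.15% of all windows. A match is a run of letters in this window and not a measured binding site, and motifs farther away were not searched.

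Tef (NM_153484; mm9 chromosome 15, 81633103 to 81657293, plus strand), a PAR bZIP factor named for its part in the embryonic thyrotroph cells of the pituitary, had an estimate of the same sign as Dbp and a smaller size. It was at 81.1, 112, 95.8, 126 and 308 CPM in cold replicates 1 to 5, against 197, 279, 194, 359 and 322 CPM in control replicates 1 to 5. The same 4 cold libraries lay below every control, and cold replicate 5 lay above 3 of the 5 controls. The means were 144 ± 92.9 CPM in cold and 270.2 ± 73.6 CPM in control libraries (SD, n = 5 each). The log2 fold change of -0.91 (SE 0.32, 95% interval -1.60 to -0.21) missed the threshold, with an adjusted p of 0.0659. Without cold replicate 5 it was -1.39 with an adjusted p of 0.000509. Of the 10 fits that left out 1 library, only that 1 gave a call, and the adjusted p reached 0.149. In the authors' deposited table the value is -0.90 with an adjusted p of 0.0155.

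Hlf (NM_172563; mm9 chromosome 11, 90197849 to 90252231, minus strand), the third PAR bZIP factor, varied least of the 3. It was at 39.7, 44, 38.5, 47.1 and 53.5 CPM in cold replicates 1 to 5, against 45, 48.8, 39.1, 66 and 60.1 CPM in control replicates 1 to 5. The groups overlapped over most of their range, with cold replicate 5 the highest of the cold libraries. The log2 fold change was -0.22 (SE 0.14, adjusted p = 0.299), with a 95% interval of -0.53 to 0.09. Its promoter window held a cAMP response element, TGACGTCA, a motif of 1.79% of all windows, that begins 9 bases before the start.

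**Figure D2:**
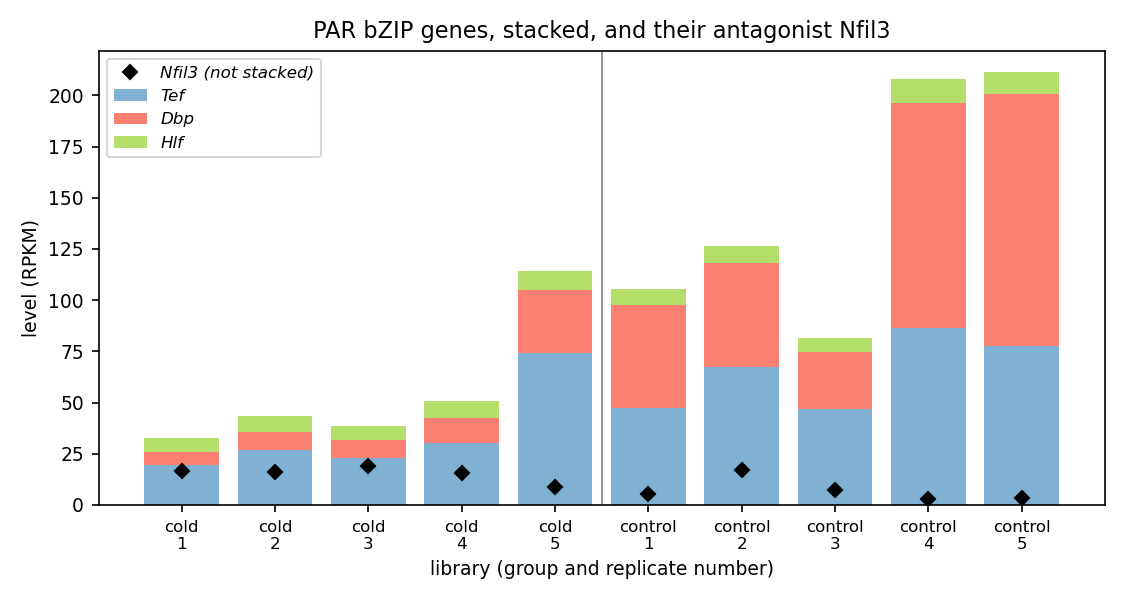
Stacked bars give the levels of Tef, Dbp and Hlf in RPKM for the 5 cold libraries, left of the line, and the 5 control libraries, right of it; diamonds give Nfil3 on the same axis, not stacked. The summed bars reach 32.7 to 50.8 RPKM in cold replicates 1 to 4, 114 RPKM in cold replicate 5 and 81.6 to 211 RPKM in the controls.

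Nfil3 (NM_017373; mm9 chromosome 13, 53062578 to 53076408, minus strand), the repressor that competes with the PAR bZIP factors for D-boxes, had an estimate of the opposite sign from theirs. It was at 33, 32, 37.8, 31.2 and 17 CPM in cold replicates 1 to 5, against 10.9, 33.7, 14.9, 5.56 and 6.6 CPM in control replicates 1 to 5. Apart from control replicate 2, each control lay below each cold library. The means were 30.2 ± 7.79 CPM in cold and 14.3 ± 11.5 CPM in control libraries (SD, n = 5 each), with a log2 fold change of 1.08 (SE 0.40, 95% interval 0.22 to 1.94, adjusted p = 0.0735). Without control replicate 2 the value was 1.70 (adjusted p = 0.000973), and without cold replicate 5 it was 1.22 (adjusted p = 0.0434). These were the only 2 calls in the 10 fits that left out 1 library, where the adjusted p reached 0.153. The authors' deposited table gives 1.07 with an adjusted p of 0.0212. Nfil3 is also used by immune cells. The 5 macrophage markers summed to 62.3 to 337 CPM in cold and 83.9 to 190.1 CPM in control libraries, with the 2 groups overlapping. Of the 5, 1 was called higher, against 10.2% of all genes tested, and the median log2 fold change was 0.61. Their sum was lowest among cold libraries in replicate 5, the cold library lowest in Nfil3 (62.3 CPM against 125 to 337 CPM in the others), as was that of the 4 fibroblast markers (169 CPM). In control replicate 2, the highest control in Nfil3, it was 85.3 CPM, inside the range of the other controls. The part of these markers in the Nfil3 values was not tested.

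Like Arntl, Nfil3 had the RORE core in its promoter window, here on the other strand, so that it reads TGACCTA, beginning 12 bases before the start. The window is chr13:52980990-52981289 on the minus strand of GRCm38.p6, shown with the match in capitals.
Nfil3: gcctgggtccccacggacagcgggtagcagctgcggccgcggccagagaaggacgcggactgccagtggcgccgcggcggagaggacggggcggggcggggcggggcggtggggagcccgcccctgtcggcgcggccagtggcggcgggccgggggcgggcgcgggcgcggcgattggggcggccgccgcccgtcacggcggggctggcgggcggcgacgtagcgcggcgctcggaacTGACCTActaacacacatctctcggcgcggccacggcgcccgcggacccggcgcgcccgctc
The windows of Clock and Npas2 held none of the motifs, and no member's window held a D-box or CACGTT. D-boxes of these letters occur in 1.06% and CACGTT in 4.68% of all windows.

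**Figure D3:**
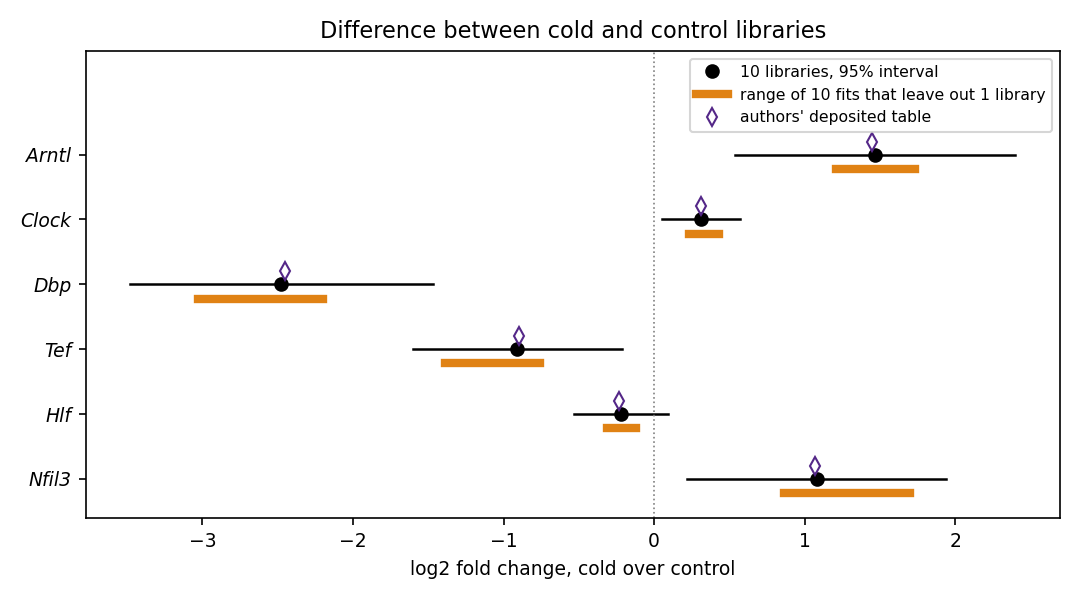
Log2 fold change of cold over control for the 6 members tested: black points with 95% intervals from all 10 libraries, orange bars for the range over the 10 fits that leave out 1 library, and open diamonds for the authors' deposited table. Arntl, Clock and Nfil3 lie above 0 and Dbp and Tef below 0 in each of these, Dbp farthest from it at -2.48.

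Ratios between members were computed in each library. They were picked with earlier results known and carry no test. Per length, Arntl relative to Dbp was at 1.33, 0.809, 0.732, 0.436 and 0.0679 in cold replicates 1 to 5, against 0.0363, 0.0679, 0.129, 0.0111 and 0.00384 in control replicates 1 to 5. The median was 0.732 in cold and 0.0363 in control libraries, and cold replicate 5 fell inside the control range. The PAR bZIP genes summed, relative to Nfil3, were at a median of 2.69 in cold libraries (1.98 to 13.4) and 19.3 in control libraries (7.48 to 74.5). Dbp made up 18.9%, 19.9%, 22.4%, 23.9% and 26.8% of the PAR bZIP sum in cold replicates 1 to 5, against 47.5%, 40.1%, 34.1%, 52.8% and 58.3% in control replicates 1 to 5. This share was the only ratio computed in which the groups did not overlap, cold replicate 5 included. Clock relative to Npas2 was at a median of 29.8 in cold and 69.9 in control libraries, with ranges of 17.3 to 134 and 14.7 to 93.1 that overlapped and rested on few Npas2 reads.

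Per length, the order of the genes also differed. In cold libraries Tef was highest at 34.8 ± 22.4 RPKM, followed by Nfil3 at 15.2 ± 3.91, Dbp at 13.2 ± 9.92 and Clock at 12.4 ± 0.344 RPKM, then Hlf at 7.86 ± 1.07, Arntl at 5.77 ± 2.32 and Npas2 at 0.43 ± 0.234 RPKM (SD, n = 5). The neighbours Nfil3, Dbp and Clock overlapped in range, as did Hlf and Arntl. In control libraries Dbp at 72.4 ± 41.6 and Tef at 65.1 ± 17.7 RPKM overlapped at the top, and the rest lay below them at 9.97 ± 2.08 (Clock), 9.14 ± 1.95 (Hlf), 7.2 ± 5.75 (Nfil3), 2.11 ± 1.38 (Arntl) and 0.272 ± 0.26 RPKM (Npas2), each overlapping its neighbour. Among control libraries the levels were far from uniform. The highest control library of Dbp held 4.43 times the lowest, that of Arntl 7.61 times and that of Nfil3 6.07 times, against 1.84 for Tef and 1.69 for Hlf and Clock. For Nfil3 this rests on control replicate 2 at 33.7 CPM, since the other 4 controls were at 5.56 to 14.9 CPM. For Arntl the lowest control, replicate 5, held 6 reads, against 19 to 46 in the other 4.

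**Figure D4:**
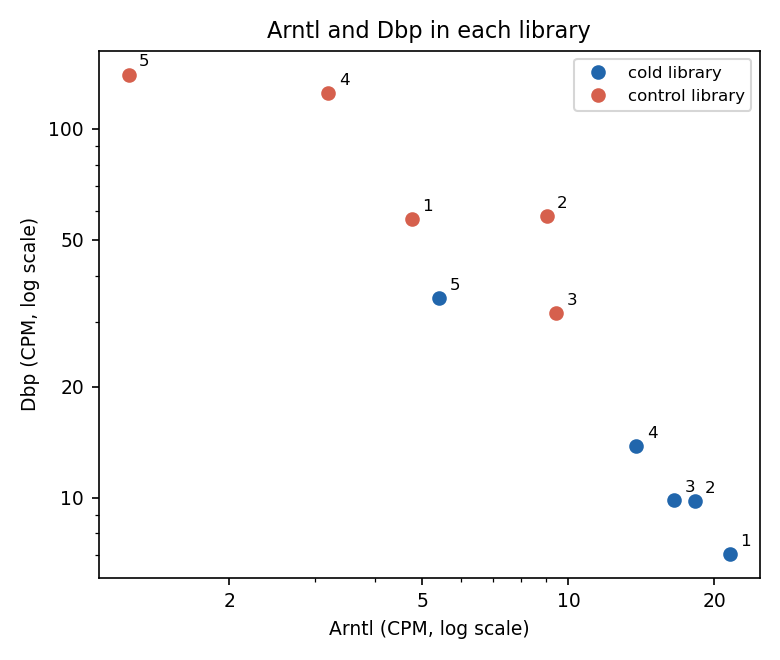
Arntl (x axis) against Dbp (y axis), both in CPM on log axes; each point is 1 library with its replicate number, cold in blue and control in red. Within each group the library highest in Arntl is the lowest in Dbp (cold replicate 1 at 21.5 and 7.04 CPM, control replicate 3 at 9.42 and 31.7 CPM) and the library lowest in Arntl is the highest in Dbp.

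Inside each group, where temperature was the same, Arntl and Dbp put the libraries in nearly opposite orders. Among controls, replicate 5 was lowest in Arntl (1.24 CPM) and highest in Dbp (140.3 CPM), and replicate 3 was highest in Arntl and lowest in Dbp. Among cold libraries, replicate 5 was lowest in Arntl, Clock, Npas2 and Nfil3 and highest in Dbp, Tef and Hlf. Relative to its group mean on the log2 scale, cold replicate 5 was at -1.29 for Arntl and -0.77 for Nfil3, and at 1.43 for Dbp and 1.27 for Tef. With 5 libraries a group, and 6 Arntl reads in control replicate 5, these orders are given as description only.

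Across all 10 libraries, the genes nearest to a member were sought by the mean absolute difference in log2 CPM after each gene's own mean was removed, among 11143 expressed genes that are not members. For Dbp the nearest was Per3, a period gene, at a mean difference of 0.47, followed by Bhlhe41 (DEC2), a bHLH repressor of the clock, at 0.57 and Acsm3, a medium-chain acyl-CoA synthetase, at 0.65. Dbp itself deviated from its mean by 1.27 on average. The measure is not scaled, so genes of unlike spread can lie apart even where they order the libraries alike. Tef was nearest to Timp4, an inhibitor of metalloproteinases, at 0.18, Bhlhe41 at 0.22 and the Rev-erb gene Nr1d2 at 0.24. Per3 was also the gene whose reversed profile lay nearest to Arntl, at 0.37, and to Nfil3, at 0.29. Arntl's own nearest genes were Cx3cl1, a chemokine, at 0.44, Lonrf3 at 0.49 and Plscr2 at 0.51, and those of Nfil3 were Adcy3, an adenylyl cyclase, at 0.36, Rom1 at 0.37 and Ccdc85c at 0.37. Among the members, Nfil3 was 0.40 from Arntl. Tef was 0.53 from Hlf and 0.71 from Dbp. The latter was above the 0.67 by which Tef deviated from its own mean and below the 1.27 of Dbp. The reversed profile of Arntl lay nearer, 0.48 from Tef and 0.49 from Dbp. In reverse, Dbp lay nearest to Tmem82 at 0.36, Elovl3, which lengthens fatty acids, at 0.44 and E2f2, a cell cycle transcription factor, at 0.48. These distances include the difference between the groups. The 3 genes were higher in cold, with log2 fold changes of 2.58 for Tmem82, 2.71 for Elovl3 and 2.49 for E2f2. Clock and Hlf spanned less than 1 on the log2 scale, so genes nearest to them were not sought.

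The repressor side of the loop was lower in part. Of 17 tested genes among 19 repressors and other core clock genes, 4 fell and 0 rose, with a median log2 fold change of -0.28, against 9.14% of all genes tested that fell and a median of -0.02. Per3 fell by 1.54 on the log2 scale (SE 0.32, adjusted p = 0.00513), at 14.7 to 43.6 CPM in cold and 40.7 to 107 CPM in control libraries. Bhlhe41 fell by 1.30 (adjusted p = 0.016), Cry2, a cryptochrome, by 0.80 (adjusted p = 0.0124) and Nr1d1 (Rev-erb alpha) by 0.49 (adjusted p = 0.0118). Nr1d1 was the only one of the 17 whose groups did not overlap, at 81.1 to 119 CPM in cold and 129 to 166 CPM in control libraries. Of all genes tested 14% had such groups, 6.57% with cold lower, so this count is no result about the list. Nr1d2 (-0.65, adjusted p = 0.0785) and Csnk1d, a kinase of PER proteins (-0.28, adjusted p = 0.0565), did not pass. Both passed without cold replicate 5, Nr1d2 at -0.91 (adjusted p = 0.0063) and Csnk1d at -0.37 (adjusted p = 0.00568), and both passed with DESeq2 (adjusted p = 0.0467 for Nr1d2 and 0.0399 for Csnk1d). Without cold replicate 5, 7 of the genes were lower, and without control replicate 2, 4 were lower and 2 higher. With all 10 libraries Cry1, also a cryptochrome, had an estimate above 0, at 0.69 (95% interval 0.04 to 1.33, adjusted p = 0.123). Of the 7 list genes with an unadjusted p under 0.05 in the quasi-likelihood test, only Cry1 had a positive estimate.

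**Figure D5:**
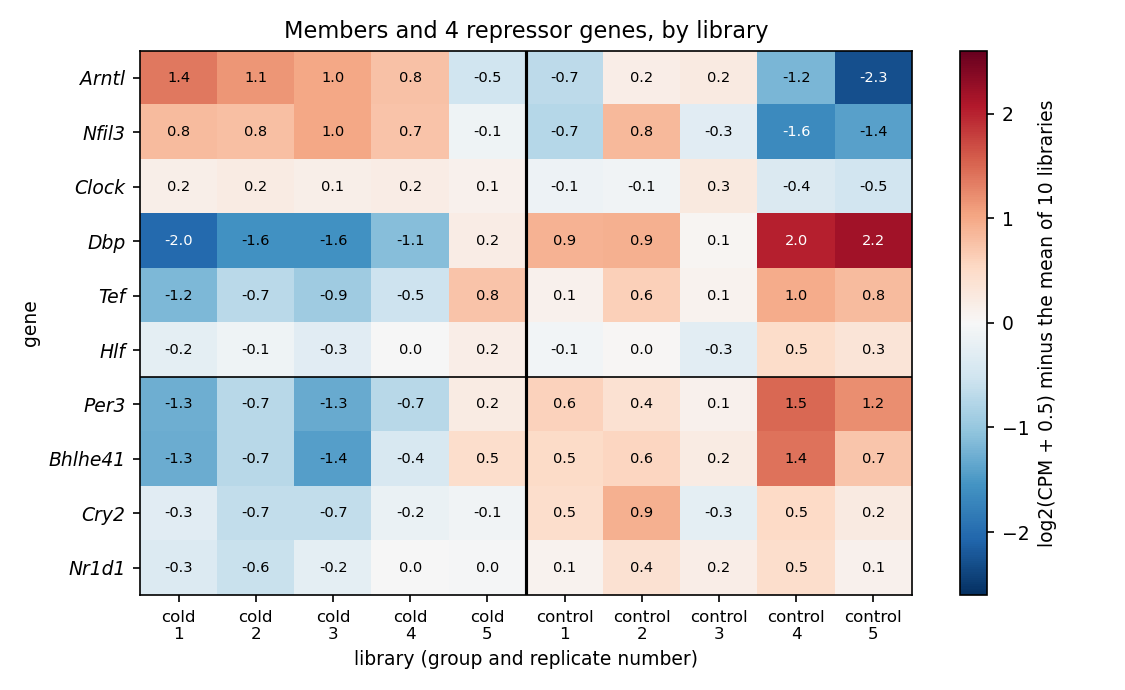
Colour and number give log2(CPM + 0.5) minus the gene's mean over 10 libraries for the 6 tested members, above the line, and the 4 repressor genes that passed the test, below it; cold libraries are left of the line and control libraries right. Cold replicates 1 to 4 are red for Arntl and Nfil3 and blue for Dbp and Tef, control replicates 4 and 5 are the reverse, and cold replicate 5 is nearer to 0 or on the control side for Arntl, Dbp and Tef.

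Genes downstream of the members were counted in the same fit, in which 19.3% of all genes were called. Of 11 tested clock-controlled output genes 0 passed edgeR's quasi-likelihood test, 1 (Gys2) had an unadjusted p under 0.05, and DESeq2 and limma-voom each called 1. Their median log2 fold change was -0.04. Gys2, a glycogen synthase, was at 0.45 (adjusted p = 0.0552), Tsc22d3, also a glucocorticoid target, at -0.63 (adjusted p = 0.152), Ccrn4l (nocturnin), a rhythmic phosphatase, at 0.63 (adjusted p = 0.185), and Wee1, a cell cycle kinase, at -0.56 (adjusted p = 0.191). Nampt, of NAD synthesis, was at -0.22 (adjusted p = 0.46). Without control replicate 2, the highest library for both, Tsc22d3 was at -0.23 (adjusted p = 0.414) and Nampt turned to 0.02 (adjusted p = 0.932). In that fit 2 of the 11 genes were called, among them Ccrn4l at 0.95 (adjusted p = 0.0246). Without control replicate 5, Gys2 alone was called (0.59, adjusted p = 0.0124).

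Of 11 genes known as PAR bZIP targets in mouse liver, brain or pituitary, 5 were expressed enough to be tested, and 1 rose, against 10.2% of all genes tested that rose; with 5 genes this is no result about the list. The gene was Pdxk, pyridoxal kinase, at 88.2 ± 5.91 CPM in cold and 72.9 ± 5.57 CPM in control libraries (0.28, SE 0.08, adjusted p = 0.031), whose groups did not overlap. Its call was lost without cold replicate 1, 3, 4 or 5 or control replicate 1 or 4 (adjusted p up to 0.0776). Por, the cytochrome P450 reductase, at -0.10 (adjusted p = 0.499), and Alas1, the first enzyme of heme synthesis, at 0.04 (adjusted p = 0.826), did not pass, nor did Per1 at -0.67 (adjusted p = 0.401). Without control replicate 2, which held 135 CPM of Per1 against 25.8 to 34.5 CPM in the other controls, Per1 turned to 0.08 (adjusted p = 0.912). Cyp2b10, a cytochrome P450, was at 25.4 to 213 CPM in cold libraries and at 5.2 to 456 CPM in controls, where the highest value was that of control replicate 2 and the other 4 reached 11.7 CPM. Its log2 fold change was -0.26 (adjusted p = 0.891), and 3.45 (adjusted p = 0.00213) without that library.

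Among 20 cofactors and modifiers of the CLOCK and BMAL1 pair, 1 rose and 1 fell, with a median of -0.09, against 10.2% of all genes tested that rose, 9.14% that fell and a median of -0.02. Cipc, which binds CLOCK and inhibits the pair, rose by 0.48 (SE 0.07, adjusted p = 0.000573), at 111 to 119.9 CPM in cold and 78 to 91.8 CPM in control libraries, and was called in all 10 fits without 1 library. Hdac3, a histone deacetylase that Rev-erb proteins recruit, fell by 0.34 (adjusted p = 0.0315), a call kept in 3 of those 10 fits. Trrap (-0.30, adjusted p = 0.0516), Kdm5a (-0.27, adjusted p = 0.0853), Ddb1 (-0.20, adjusted p = 0.121) and Csnk2a1 (0.15, adjusted p = 0.142) did not pass. Without cold replicate 5, Trrap (-0.39, adjusted p = 0.00702), Kdm5a (-0.33, adjusted p = 0.0376) and Ddb1 (-0.27, adjusted p = 0.0341) passed. The count was 5 without cold replicate 5 and 1 without cold replicate 1, 2, 3 or 4 or control replicate 3 or 4.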

How the data were processed

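Poly-A RNA of 10 mice was sequenced as 1 library each, and the authors deposited raw read counts per RefSeq gene model, with the bases counted, per the file headers. STAR, edgeR and the build mm9 are named in the submitters' processing notes; their versions, the read counter, any strand setting and the annotation used are not given. A second deposited table gives the authors' log2 fold change, log2 CPM, p-value and adjusted p-value (FDR) per gene, per the file headers. The treatment tag of the cold samples names room temperature beside 4 °C; titles and protocol place them in the cold group. Control columns carry no group word and were matched on the replicate number, and 0 single-library columns stayed out.

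Counts were tested with edgeR 4.0.16 (R 4.3.3) by the quasi-likelihood F test, cold against control without covariate, after filterByExpr (minimum count 10, 11229 genes kept) and TMM scaling. Two-sided p-values were Benjamini-Hochberg adjusted across the genes kept, threshold 0.05. SE is the log2 fold change over the square root of F. DESeq2 1.42.0, limma 3.58.1 (voom), other scalings and filters, a replicate block and left-out libraries were alternatives. The procedure was tested on simulated data. Log2 CPM used a prior count of 2, or a pseudocount of 0.5 CPM for exact permutation tests and the heat map. In groups of 5, the exact two-sided test cannot go below 0.00794. Over all genes tested, same-numbered cold and control libraries did not deviate together (correlations -0.25 to 0.19), so numbers were not taken as pairs. A correlation over all genes cannot show whether the numbers share an order in clock genes alone. No pair of replicates agreed within sampling noise (chi-square per degree of freedom 3.2 to 36.1).

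Members and lists were chosen with earlier results of these data known. Named genes are the 7 members, up to 6 of each list by smallest p, and for members spanning at least 1 on the log2 scale the 3 genes nearest in profile and in reverse. Sphk2, as a neighbour, and Cry1, from the list of repressors, were added after their values were seen. Promoter windows are RefSeq's on GRCm38.p6 (all 7 members matched, 11 windows), a build other than that of the counts; count coordinates are those deposited, with starts raised by 1.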

Additional observations from a re-analysis of the deposited data

Results flagged for a closer look

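Values were examined for the 7 members, 4 ratios between them and the genes named from the lists by smallest p, in 66 groups of 5 libraries. In 10 groups the highest library lay far from the other 4, with a gap above 0.71 of the group's range. That limit picks about 1 group in 20 by chance where groups are independent and values normally distributed. Here it was applied to CPM and ratios without logs, and the groups share the same 10 libraries, so that rate need not hold. No explanation was tested for any of them.

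Cold replicate 5 was the highest of its group for Dbp (34.8 CPM against 7.04 to 13.8 in the other 4), Tef (308 CPM against 81.1 to 126) and Per3 (43.6 CPM against 14.7 to 22.4). It was also the highest in the ratio of Clock to Npas2 (134 against 17.3 to 30.2) and in that of the PAR bZIP sum to Nfil3 (13.4 against 1.98 to 3.24).

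Control replicate 2 was the highest of its group for Per1 (135 CPM against 25.8 to 34.5 in the other 4), Nampt (904 CPM against 436 to 511), Tsc22d3 (99.2 CPM against 29.2 to 45.8), Cyp2b10 (456 CPM against 5.2 to 11.7) and Cipc (91.8 CPM against 78 to 81.7).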

How the results depend on the processing

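The direction of all 6 tested members was kept under every scaling, filter, tool and left-out library. Over the fits without 1 library the log2 fold change was 1.21 to 1.73 for Arntl, 0.23 to 0.43 for Clock, -3.03 to -2.20 for Dbp, -1.39 to -0.76 for Tef, -0.31 to -0.12 for Hlf and 0.86 to 1.70 for Nfil3, and 0.37 to 1.41 for Npas2 with no filter. Dbp and Hlf stayed on their side of the threshold in all alternatives. Tef passed with limma-voom (-1.05), without control replicate 2 and cold replicate 5 together (-1.38) and, unadjusted, in the exact permutation test (-1.04, p = 0.0397). Nfil3 passed in the same 3 (1.38, 1.85, and 1.30 with p = 0.0397), Clock in the exact permutation test (0.33, p = 0.0476) and Npas2 without both libraries (1.65). With the replicate number as a block, Tef was at -1.04 (adjusted p = 0.00641), Nfil3 at 1.27 (adjusted p = 0.0204) and Nr1d2 at -0.70 (adjusted p = 0.0109), with 981 genes called higher and 808 lower against 1142 and 1026; 1 of 5 cold libraries correlated best with its own number over all genes. Among the members, Dbp and Hlf deviated from their group means in the same direction in all 5 same-numbered libraries. For replicate 5 this was by 1.43 in cold and 0.97 in control for Dbp, and by 0.27 and 0.24 for Hlf. Arntl did so apart from replicate 4 (0.0 in cold and -0.44 in control), and Tef, Clock and Nfil3 did not. Under the block the SE was 0.21 against 0.46 for Dbp and 0.25 against 0.43 for Arntl, which was at 1.53 (adjusted p = 0.00386).

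Called genes numbered 823 to 1310 higher and 732 to 1157 lower over the fits without 1 library. For the lists these fits gave 4 to 7 repressor and core clock genes, 0 to 2 output genes, 0 to 2 PAR bZIP targets and 1 to 5 cofactors. Without both libraries the counts were 9, 2, 2 and 5. Output genes numbered 1 with no scaling factor, DESeq2, limma-voom or the block; PAR bZIP targets 0 with no filter or the block; cofactors 1 with the block. Cyp2b10 turned to 1.81 with limma-voom, 1.80 with the block, 2.71 without both libraries and 3.45 as the upper end of -1.0 to 3.45 without 1 library. Nampt ranged over -0.35 to 0.02, Per1 over -1.07 to 0.08 and Alas1 over -0.01 to 0.10. The cause was not tested. The unfiltered alternatives for Npas2 were added after seeing the data. Npas2, with 2 to 20 reads a library, was the only member under the filter.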
